A study of Mus musculus with 6 samples.

Results

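The Wnt pathway was followed in mouse bone marrow stromal cells that had or had not been fed apoptotic thymocytes. The set comprised 70 genes of the 53735 features in the count table. They were chosen by gene symbol: the Wnt, Frizzled, Dickkopf, Sfrp, R-spondin, Lgr4 to Lgr6, Dact and Kremen families, and 21 further receptors, inhibitors, transducers and transcription factors. The rule uses names and no measured value, but it was written with earlier results of these data known.

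Per its title, the series examines what phagocytosis does to mesenchymal-osteolineage cells. The genotype of all cells was wild type (wt). Stromal cells from leg and pelvic marrow, sorted as lineage-, CD45-, CD31- and CD51+, were grown at 2% oxygen, and passage 2 or 3 was used. The fed group (3 libraries) received 5000000 dye-labelled apoptotic thymocytes per well for 24 h at 5% oxygen, and the cells collected were those positive for the dye. The control group (3 libraries) received no thymocytes and was sorted as well. The sources used here do not give the strain, age or number of mice, nor the oxygen of the control wells in the last 24 h. An effect of feeding therefore cannot be told apart from any effect of oxygen, of the washes or of selecting label-positive cells. Whether replicate libraries stem from different cultures or mice is not stated, so a p-value here measures only the spread between these samples, and that spread may be technical.

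Wnt proteins are secreted lipid-modified ligands that bind Frizzled receptors. With the co-receptors Lrp5 and Lrp6 they stabilise beta-catenin, which acts with TCF/LEF factors on target genes. Through Ror1, Ror2, Ryk and related receptors they also signal without beta-catenin. R-spondins bind Lgr receptors and amplify the signal by removing the ubiquitin ligases Znrf3 and Rnf43 from Frizzled. Secreted antagonists of the Sfrp and Dickkopf families, Wif1, sclerostin and Notum restrain it. In bone marrow stroma the pathway is known for promoting osteoblast over adipocyte fate.

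Sequencing depth was similar across libraries, from 19069074 to 22410047 counts. Of the 13 marker genes of marrow stromal cells, all were detected, and their summed level was 36963 to 38439 CPM (counts per 1e+06 counts of the scaled library total) in control and 32421 to 34349 CPM in fed libraries. Of 24 thymocyte and T cell markers, 6 had no count in any library (Cd3g, Rag2, Ptcra, Cd5, Cd2 and Arpp21) and 1, Trac, exceeded a mean of 1 CPM. Their sum was 12.7 to 13.6 CPM in control and 11.0 to 12.9 in fed libraries. Trac fell from 12.2 ± 0.756 to 9.90 ± 0.724 CPM (SD, n = 3; adjusted p = 0.00887), and Lck, the only other one tested, did not pass (adjusted p = 0.269). Of those too low to test, Rag1, Cd8a, Cd8b1, Dntt and Ptprc were higher in every fed library than in any control library, at fed means of 0.0758 to 0.384 CPM, and Themis was lower in every fed library. Of 16 macrophage and granulocyte markers, 2 had no count (Fcgr1 and Elane), and the sum was 14.3 to 15.6 CPM in control and 21.4 to 22.5 in fed libraries. Lyz2 rose from 3.32 ± 0.658 to 7.47 ± 0.865 CPM (adjusted p = 1.61e-06). S100a8 (0.00092) and Cd14 (0.049) were also called higher, while Csf1r (0.596) and Cd68 (0.628) did not pass. S100a8 had 0.105 to 0.236 CPM in control and 0.528 to 1.06 in fed libraries. It reached the minimum level for testing, 0.465 CPM, only in the fed libraries, so its call rests in part on the filter. C1qa, C1qb, C1qc and Adgre1, too low to test, had counts in every fed library and none in control, at fed means of 0.173 to 0.389 CPM. Ly6g was lower in every fed library. Endothelial markers (10 genes, of which Cdh5, Tie1, Emcn and Cldn5 had no count) summed to 11.9 to 12.0 and 11.0 to 13.3 CPM. Among them Vwf fell from 2.79 ± 0.377 to 1.70 ± 0.461 CPM (adjusted p = 0.00702). Erg was higher in every fed library but did not pass (0.0977), nor did Egfl7 (0.214) and Tek (0.799). Those of B and erythroid cells (11 genes, 8 with no count) summed to 0.263 CPM or less in every library.

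The promoters of the members with the largest decreases and the largest increase are shown first, from RefSeq on build GRCm38.p6, 250 bases before to 50 after the gene start. Of the 70 members, 47 had an entry. Capitals mark the TCF/LEF core letters CTTTGAT, searched on both strands (ATCAAAG on the other). Wnt16 (chr6:22287977-22288276, plus strand) and Dact1 (chr12:71309634-71309933, plus strand) fell most, and Wnt11 (chr7:98834862-98835161, plus strand) rose most.
Wnt16: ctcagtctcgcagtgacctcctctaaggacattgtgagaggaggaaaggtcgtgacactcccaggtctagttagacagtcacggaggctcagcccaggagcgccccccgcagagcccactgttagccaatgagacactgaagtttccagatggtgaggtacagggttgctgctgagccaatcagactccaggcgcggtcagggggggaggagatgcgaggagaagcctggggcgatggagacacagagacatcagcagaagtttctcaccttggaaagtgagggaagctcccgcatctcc
Dact1: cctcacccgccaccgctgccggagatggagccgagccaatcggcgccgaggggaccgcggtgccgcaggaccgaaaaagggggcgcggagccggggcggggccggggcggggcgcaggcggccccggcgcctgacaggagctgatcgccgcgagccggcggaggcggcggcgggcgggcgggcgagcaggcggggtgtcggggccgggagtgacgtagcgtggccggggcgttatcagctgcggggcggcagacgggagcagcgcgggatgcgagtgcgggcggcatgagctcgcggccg
Wnt11: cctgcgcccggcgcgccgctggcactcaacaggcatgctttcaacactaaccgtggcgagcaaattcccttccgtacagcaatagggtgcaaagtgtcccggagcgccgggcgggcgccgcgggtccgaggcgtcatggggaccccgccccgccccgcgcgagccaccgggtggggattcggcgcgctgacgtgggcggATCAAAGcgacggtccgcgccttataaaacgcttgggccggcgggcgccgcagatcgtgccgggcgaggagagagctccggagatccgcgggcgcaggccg
These letters stood in 2 of 57 member promoters (3.51%), those of Wnt11 and Wnt5b, and in 3.73% of all 32851 promoters of this length. In Wnt11 the match began 51 bases before the start of 1 of its promoters, the one shown, in the reverse orientation. In Wnt5b it began 71 bases before the start of 1 of its promoters, in the forward orientation. The match is a description of letters, and binding was not measured.

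In fed cells, 5 of 8 tested secreted Wnt antagonists and Kremen genes (62.5%) fell, as did 3 of 5 tested R-spondin pathway genes (60%). Of all genes tested, 19.0% fell, and of the 13 markers of marrow stromal cells 53.8% did. Ligands and receptors went both ways. Of the 70 members, 49 had enough reads to test and 21 did not. With edgeR's quasi-likelihood test, 22 of the 49 passed an adjusted p of 0.05 (Benjamini-Hochberg, over all 13092 genes tested) and are called changed. That is 44.9% of the tested members, beside 39.5% of all genes. The members called higher were 8 (16.3%, beside 20.5% of all genes), and those called lower were 14 (28.6%, beside 19.0%). The median log2 fold change was -0.05 over the tested members and -0.01 over all genes tested. Groups did not overlap for 26 tested members (53.1%, beside 49.1%). Among all genes called changed, groups overlapped for only 224 of 5175, so a lack of overlap adds little to a call. In these bulk samples fewer cells of a type and less RNA per cell cannot be told apart.

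**Figure D1:**
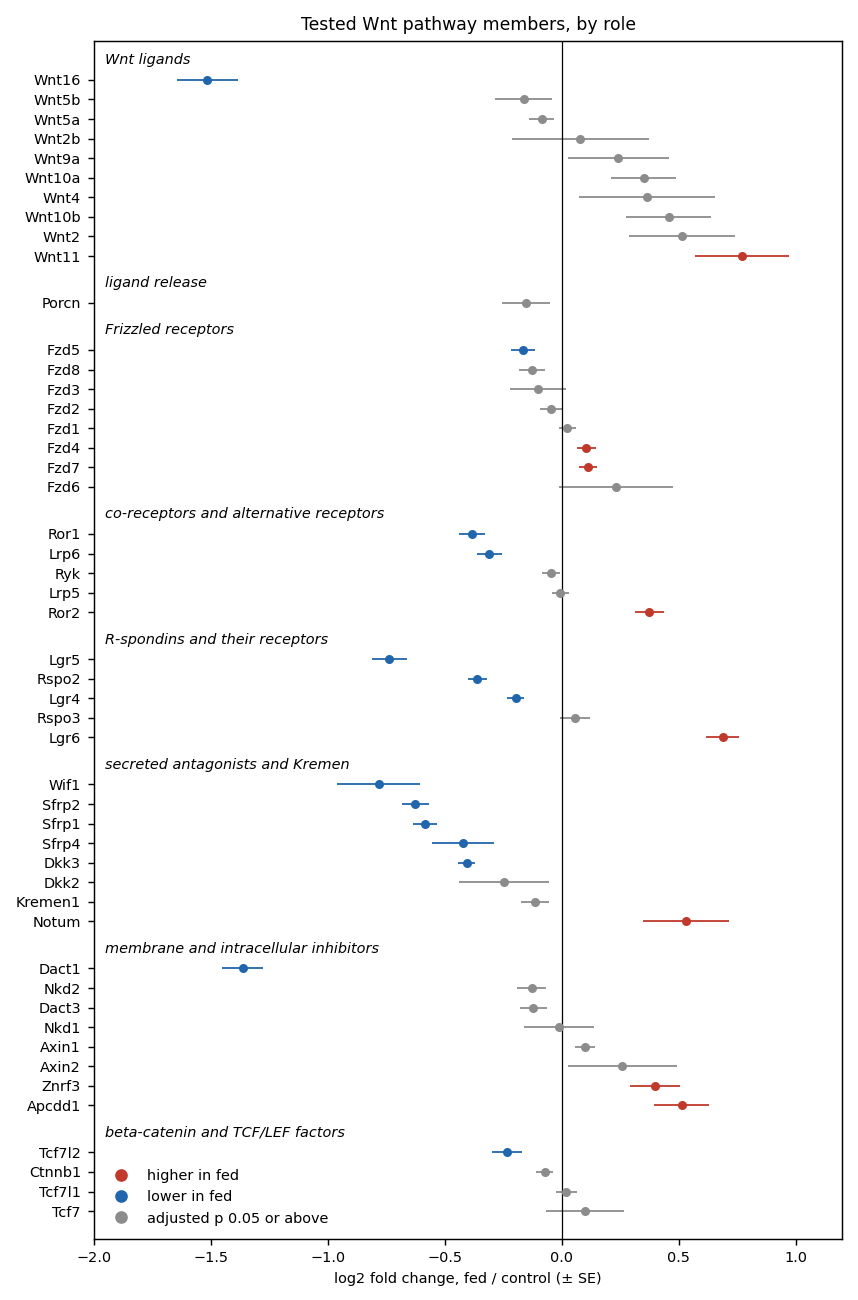
Log2 fold change of fed over control (x axis, bars are standard errors) for the 49 tested members, grouped by role (y axis), with colour giving the call at an adjusted p under 0.05. Wnt16 at -1.51 and Dact1 at -1.36 lie farthest to the left and Wnt11 at 0.77 and Lgr6 at 0.69 farthest to the right.

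Among the 19 Wnt ligands, 10 were tested, 1 fell and 1 rose (20% changed, beside 39.5% of all genes). Wnt16, a ligand made by osteoblast lineage cells and known to protect cortical bone, had 31.6, 29.5 and 23.6 CPM in the control libraries and 11.5, 9.05 and 9.24 in the fed libraries. Every fed library lay below every control library. It fell 2.86-fold, and its log2 fold change was -1.51 ± 0.13 (the error is the SE; adjusted p = 1.57e-05). The gene lies on chromosome 6, 22288227 to 22298522.

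Wnt11, a ligand known mainly for signalling without beta-catenin (chromosome 7, 98835112 to 98855195), was low. It had 1.81, 1.23 and 2.16 CPM in control and 2.87, 3.40 and 2.55 CPM in fed libraries. The groups did not overlap, and it rose 1.71-fold, with a log2 fold change of 0.77 ± 0.20 (adjusted p = 0.00433). Wnt5a, the best known ligand of the beta-catenin-independent branch, had 43.2, 40.6 and 39.4 CPM in control and 41.4, 37.7 and 37.3 in fed libraries. These ranges overlapped, and its log2 fold change of -0.09 ± 0.055 did not pass (adjusted p = 0.231). Wnt10a and Wnt10b, ligands that favour osteoblast over adipocyte fate, were higher in all fed libraries than in any control library without passing. Wnt10a had 3.33 to 3.89 CPM in control and 3.95 to 5.06 in fed libraries (adjusted p = 0.0518). Wnt10b had 1.95 to 2.17 and 2.18 to 3.17 CPM (adjusted p = 0.0508). Both passed with library totals only (0.0346 for Wnt10a and 0.0366 for Wnt10b) and with the replicate number as a block (0.0436 and 0.0427). Wnt10a also passed when control replicate 3 (0.0449) or fed replicate 2 (0.0266) was left out. Wnt10b also passed with RLE size factors (0.0498), with a minimum of 1 CPM (0.0496) and when fed replicate 1 was left out (0.0123). Of the 15 alternatives, Wnt10a thus passed in 4 and Wnt10b in 5. Neither gene passed in the rest, where adjusted p reached 0.195 for Wnt10a and 0.191 for Wnt10b. The other tested ligands, Wnt2, Wnt2b, Wnt4, Wnt5b and Wnt9a, had adjusted p between 0.0785 and 0.849.

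On a scale that compares genes, CPM per kilobase of exon, Wnt16 and Wnt5a were the ligands with the highest level in control cells. Their control levels, 6.47 ± 0.95 and 5.25 ± 0.25 CPM per kilobase (SD, n = 3), overlapped between libraries. Wnt5b followed at 2.68 ± 0.41 and Wnt10a at 1.47 ± 0.11. In fed cells Wnt5a led at 4.96 ± 0.29, above every fed value of the others. Wnt5b at 2.39 ± 0.23, Wnt16 at 2.28 ± 0.32 and Wnt10a at 1.87 ± 0.24 came next, where the libraries of Wnt5b and Wnt16 overlapped and those of Wnt10a lay just below Wnt16. The share of Wnt16 in the summed ligand level was 32.2% to 37.3% in control and 14.0% to 16.9% in fed libraries. The sum itself was 16.8 to 19.4 CPM per kilobase in control and 14.3 to 15.6 in fed libraries.

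The remaining 9 ligands did not reach the minimum level for testing. Wnt3, Wnt3a, Wnt7a, Wnt8b and Wnt9b had no count in any library. Wnt6 had 49 counts over all libraries, and Wnt1, Wnt7b and Wnt8a had 3, 2 and 1. A count of 0 allows a level of up to 0.132 to 0.158 CPM per library, where 3 counts set the limit, which covers counting error only. Porcn, the acyltransferase that adds the lipid to Wnt proteins, measured 8.32 ± 0.665 CPM in control cells and 7.50 ± 0.674 in fed cells (adjusted p = 0.264).

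**Figure D2:**
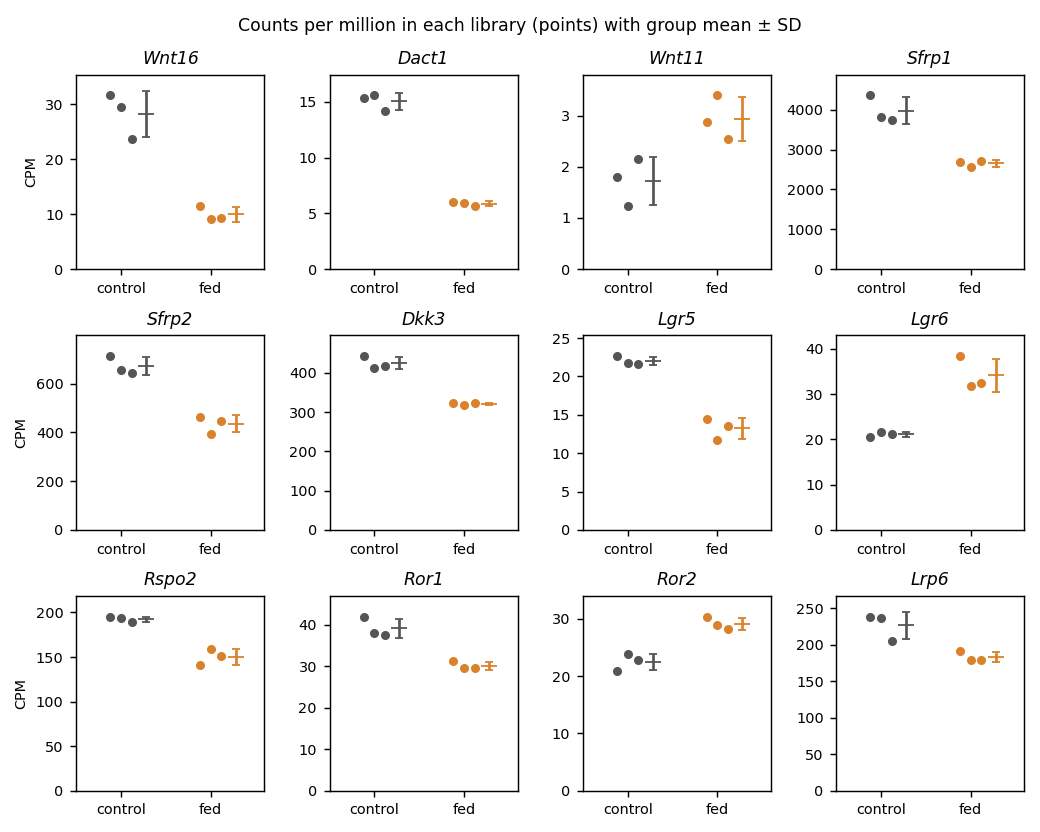
CPM (y axis, from 0) of 12 called members in each control and fed library (points), with the group mean and SD beside them. In each panel the 3 fed libraries lie on the same side of the 3 control libraries, below them for Wnt16, Dact1, the antagonists, Lgr5, Rspo2, Ror1 and Lrp6 and above them for Wnt11, Lgr6 and Ror2.

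Frizzled receptors changed little. Of 10 genes, 8 were tested, 2 rose and 1 fell (37.5% changed, beside 39.5% of all genes), with folds that stayed small. Fzd5 had 68.1, 62.0 and 64.3 CPM in control and 61.1, 53.4 and 58.8 CPM in fed libraries, a log2 fold change of -0.17 ± 0.052 (adjusted p = 0.0145). Fzd7 had 119.6, 123 and 125 CPM in control and 128, 132 and 136 CPM in fed libraries (0.11 ± 0.038, adjusted p = 0.0248). Fzd4, the receptor of the vascular ligand norrin as well as of Wnts, had 120.4, 119 and 118 CPM in control and 121, 131 and 133 in fed libraries (0.11 ± 0.041, adjusted p = 0.0449). Groups did not overlap for any of the 3, as for all but 224 of the 5175 genes called changed. For Fzd4 the gap was narrow, from 120.4 CPM in control to 121 in fed libraries.

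These 3 calls changed with the libraries or the method used. Fzd5 did not pass when control replicate 1 (adjusted p = 0.0784) or fed replicate 2 (0.12) was left out. Fzd7 did not pass by DESeq2 (0.0648). Nor did it pass when control replicate 1 (0.0899) or 2 (0.0770) was left out, or when fed replicate 2 (0.0672) or 3 (0.109) was. Fzd4 passed in only 1 of the fits that left out a library, that without fed replicate 1 (0.00674), and the others gave 0.0634 to 0.198. With all libraries it did not pass by DESeq2 (0.104), by limma-voom (0.0573) or without robust estimation (0.0554).

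Fzd1 had the highest level of the family per length, 41.5 ± 0.22 CPM per kilobase in control cells and 42.2 ± 1.0 in fed cells (adjusted p = 0.617). The order below it was Fzd7, Fzd2, Fzd4, Fzd5, Fzd8, Fzd3 and Fzd6 in both groups, and the libraries of Fzd3 and Fzd6 overlapped in fed cells. Fzd9 and Fzd10, with 45 and 21 counts over all libraries, were not tested.

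Of the co-receptors and alternative receptors, all 5 were tested, 2 fell and 1 rose (60% changed, beside 39.5% of all genes). The receptor tyrosine kinases Ror1 and Ror2, which bind Wnt5a, moved in opposite directions. Ror1 had 41.8, 38.0 and 37.6 CPM in control and 31.2, 29.6 and 29.4 in fed libraries, a log2 fold change of -0.38 ± 0.056 (adjusted p = 1.75e-05). Ror2 had 20.9, 23.8 and 22.7 CPM in control and 30.3, 28.9 and 28.3 in fed libraries, a log2 fold change of 0.38 ± 0.063 (adjusted p = 7.32e-05). For both genes the groups did not overlap. The ratio of Ror2 to Ror1 counts within a library, which needs no normalization, was 0.577 ± 0.068 in control and 0.969 ± 0.0073 in fed cells (SD, n = 3). This ratio is not scaled by gene length. Per kilobase of exon, Ror1 had the higher control level, 6.79 ± 0.40 CPM against 5.30 ± 0.35 for Ror2. In fed cells the order was reversed, with 5.22 ± 0.17 for Ror1 and 6.87 ± 0.24 for Ror2.

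Lrp6, a co-receptor of the beta-catenin branch (chromosome 6, 134446476 to 134566965), fell 1.24-fold. Its values were 238, 236 and 205 CPM in control and 191, 179 and 179 in fed libraries (log2 fold change -0.31 ± 0.052, adjusted p = 0.000236). The related Lrp5 measured 126 ± 1.09 CPM in control cells and 126 ± 2.45 in fed cells, with a log2 fold change of -0.01 ± 0.036 (adjusted p = 0.914). Ryk, an atypical receptor without kinase activity, had the highest level of this group per length, at 80.3 ± 2.7 CPM per kilobase in control cells and 77.9 ± 2.6 in fed cells (adjusted p = 0.387).

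Of the R-spondin receptors, Lgr5 and Lgr6 moved in opposite directions. Of 7 genes, 5 were tested, 3 fell and 1 rose (80% changed, beside 39.5% of all genes). Lgr5, an R-spondin receptor best known as a stem cell marker of epithelia (chromosome 10, 115450311 to 115587780), had 22.6, 21.8 and 21.6 CPM in control and 14.4, 11.8 and 13.5 in fed libraries. It fell 1.67-fold (log2 fold change -0.74 ± 0.074, adjusted p = 1.41e-07). Its paralogue Lgr6 (chromosome 1, 134983301 to 135105276) had 20.6, 21.7 and 21.2 CPM in control and 38.4, 31.7 and 32.4 in fed libraries. It rose 1.61-fold (0.69 ± 0.070, adjusted p = 2.12e-07). All fed libraries lay below all control libraries for Lgr5 and above them for Lgr6.

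The counts of Lgr6 and Lgr5 were nearly equal in control libraries, with ratios of 0.910, 0.996 and 0.981. In fed libraries the ratios were 2.66, 2.70 and 2.40. Counts are not scaled by gene length. Per kilobase of exon, Lgr6 had the higher control level, 3.09 ± 0.078 CPM against 2.14 ± 0.054 for Lgr5, without overlap of the libraries. The exact permutation test of the Lgr6 to Lgr5 ratio, two-sided, gave p = 0.1, the smallest that 3 against 3 libraries allow, as it did for Ror2 over Ror1. Both ratios were chosen after their values were seen. Each sets a gene higher in every fed library over a gene lower in every fed library. The separation, and with it this p, was therefore fixed by the choice of genes.

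Per length, Lgr4 had the highest level of the 3 receptors. It had 192, 185 and 187 CPM in control and 161, 166 and 164 in fed libraries (log2 fold change -0.20 ± 0.036, adjusted p = 0.000191), and 31.9 ± 0.64 and 27.8 ± 0.42 CPM per kilobase. Rspo2, the R-spondin with the highest level (chromosome 15, 43020794 to 43170826), had 195, 194 and 189 CPM in control and 141, 158 and 151 in fed libraries. It fell 1.28-fold (-0.36 ± 0.042, adjusted p = 8.28e-07) with no overlap of the groups. Rspo3 measured 21.5 ± 0.871 CPM in control cells and 22.4 ± 1.04 in fed cells (adjusted p = 0.512). Rspo1 had 9 counts over all libraries and Rspo4 had 1, and neither was tested.

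**Figure D3:**
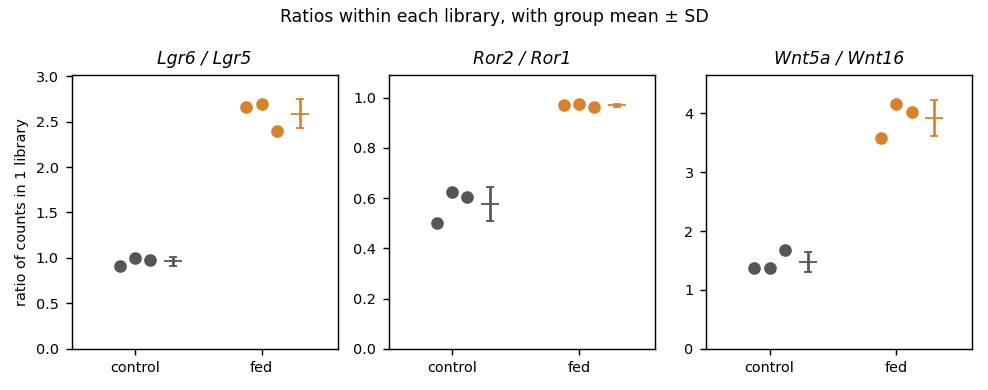
Ratio of the counts of 2 genes within each library (y axis, from 0) for Lgr6 over Lgr5, Ror2 over Ror1 and Wnt5a over Wnt16, with group mean and SD. The fed libraries lie above the control libraries in all 3 panels, with means of 2.59, 0.969 and 3.93 in fed and 0.962, 0.577 and 1.47 in control cells. The 3 pairs of genes were chosen with results of these data known. Counts are not scaled by gene length, so a ratio does not tell which gene had the higher level per kilobase of exon.

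Most of the tested secreted antagonists fell. Of the 13 genes of secreted antagonists and Kremen receptors, 8 were tested, 5 fell and 1 rose (75% changed, beside 39.5% of all genes). Their median log2 fold change was -0.41, beside -0.01 over all genes tested. Sfrp1, a soluble Frizzled-like protein that binds Wnts (chromosome 8, 23411502 to 23449632), had 4359, 3813 and 3749.9 CPM in control and 2678, 2561 and 2717 in fed libraries. It fell 1.5-fold (log2 fold change -0.58 ± 0.051, adjusted p = 1.14e-07) and still had the highest level per length of all tested members in fed cells, 607 ± 19 CPM per kilobase against 909 ± 77 in control.

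Sfrp2 (chromosome 3, 83766321 to 83774316) had 713, 657 and 645 CPM in control and 462, 396 and 449 in fed libraries. It fell 1.54-fold (-0.62 ± 0.057, adjusted p = 2.48e-06). Dkk3, a divergent Dickkopf protein (chromosome 7, 112116017 to 112159057), had 442, 412 and 418 CPM in control and 322, 317 and 322 in fed libraries. Its log2 fold change was -0.41 ± 0.037 (adjusted p = 3.62e-08). All fed libraries lay below all control libraries for Sfrp1, Sfrp2 and Dkk3.

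Wif1, a secreted Wnt-binding protein, was low, at 2.59, 3.30 and 3.32 CPM in control and 1.98, 1.75 and 1.63 in fed libraries (-0.78 ± 0.18, adjusted p = 0.00144). Sfrp4 had 30.5, 26.0 and 23.3 CPM in control and 22.7, 16.8 and 20.4 in fed libraries (-0.42 ± 0.13, adjusted p = 0.0405). That call was lost without control replicate 2 (0.0880) or fed replicate 3 (0.115). Notum, a secreted enzyme that removes the lipid from Wnt proteins, moved the other way. It had 1.53, 2.03 and 1.63 CPM in control and 2.67, 2.57 and 2.29 in fed libraries (0.53 ± 0.18, adjusted p = 0.0266). The call was lost by DESeq2 (0.115). It was also lost when control replicate 1 (0.103) or 3 (0.0654) was left out, and when fed replicate 1 (0.0736) or 2 (0.0728) was.

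Neither Dkk2 nor Kremen1, a receptor for Dickkopf proteins, passed, at log2 fold changes of -0.25 (adjusted p = 0.331) and -0.12 (0.152). Dkk1, Dkk4, Sfrp5, Sost and Kremen2 had no count in any library. Sost encodes sclerostin, the antagonist made by osteocytes. Of the 13 markers of marrow stromal cells, 7 fell and 1, Nt5e (0.47), rose (61.5% changed, beside 39.5% of all genes). Those that fell were 53.8%, beside 19.0% of all genes and 62.5% of the tested antagonists and Kremen genes. The median of the list was -0.18 on the log2 scale. The called decreases ran from -0.38 for Thy1 to -0.12 for Col1a1. Cxcl12 had a larger decrease, -0.45, and every fed library lay below every control library, but it did not pass (adjusted p = 0.0538). The part of these markers in the decrease of the antagonists was not tested.

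Inhibitors at the membrane and inside the cell went both ways. Of 10 genes, 8 were tested, 2 rose and 1 fell (37.5% changed, near the 39.5% of all genes). Dact1, a scaffold that binds Dishevelled (chromosome 12, 71309884 to 71320107), had 15.4, 15.6 and 14.2 CPM in control and 6.04, 5.88 and 5.63 in fed libraries. It fell 2.57-fold (log2 fold change -1.36 ± 0.088, adjusted p = 4.2e-10), with a wide gap between the groups. The related Dact3 measured 34.6 ± 1.33 CPM in control cells and 31.8 ± 1.71 in fed cells (adjusted p = 0.0973). Dact2 had 5 counts over all libraries.

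Znrf3, the ubiquitin ligase that removes Frizzled from the surface, had 6.81, 6.75 and 6.11 CPM in control and 9.71, 8.23 and 8.10 in fed libraries. It rose 1.32-fold (0.40 ± 0.11, adjusted p = 0.00503). Apcdd1, a membrane-bound Wnt inhibitor, had 4.35, 5.10 and 4.21 CPM in control and 6.69, 6.11 and 6.73 in fed libraries (0.51 ± 0.12, adjusted p = 0.00177). Neither pair of groups overlapped. Rnf43, the partner of Znrf3, had 4 counts over all libraries.

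Axin2, the feedback inhibitor that is the most widely used readout of beta-catenin signalling, was near the limit of testing. It had 1.53, 1.04 and 1.05 CPM in control and 1.39, 1.38 and 1.58 in fed libraries, ranges that overlapped (0.26 ± 0.23, adjusted p = 0.399). Axin1, the scaffold of the destruction complex, had 54.1 ± 1.02 and 58.0 ± 1.57 CPM (adjusted p = 0.0758). Nkd2, an antagonist that binds Dishevelled, had the highest level of these inhibitors per length and measured 98.7 ± 8.95 CPM in control cells and 90.4 ± 5.22 in fed cells (adjusted p = 0.128). Its paralogue Nkd1 had 3.66 ± 0.301 and 3.63 ± 0.555 CPM (adjusted p = 0.961).

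Of beta-catenin and the TCF/LEF factors, 4 of 5 genes were tested and 1 fell (25% changed, beside 39.5% of all genes). Tcf7l2 (chromosome 19, 55741820 to 55933654) had 24.5, 24.3 and 23.5 CPM in control and 20.0, 19.3 and 22.1 in fed libraries, with no overlap. Its log2 fold change was -0.23 ± 0.065 (adjusted p = 0.00727), and the call was lost without fed replicate 2 (0.0514). Ctnnb1, which encodes beta-catenin, had 706, 714 and 721 CPM in control and 664, 679 and 693 in fed libraries. The fed libraries lay below the control libraries, but its change of -0.07 ± 0.036 did not pass (adjusted p = 0.117), though it did with the replicate number as a block (0.0393). Tcf7l1 had 62.1 ± 2.14 and 63.0 ± 2.01 CPM (adjusted p = 0.740).

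Tcf7 and Lef1 are TCF/LEF factors that thymocytes express strongly. Tcf7 had 2.69, 2.27 and 2.53 CPM in control and 2.62, 2.34 and 3.04 in fed libraries, with overlapping ranges (adjusted p = 0.667). Lef1 had 21 counts over all libraries and was not tested.

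**Figure D4:**
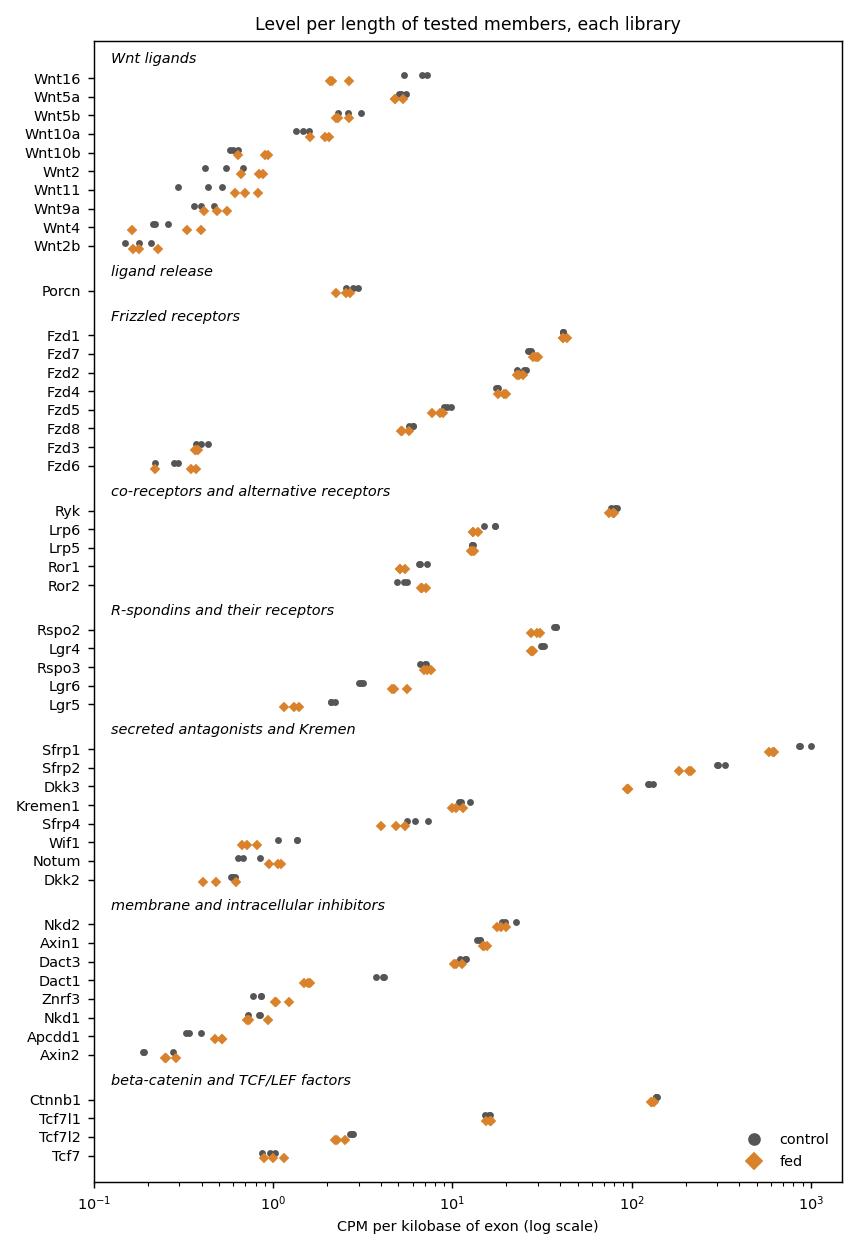
Level of each tested member in CPM per kilobase of exon (x axis, log scale) in every control (circles) and fed (diamonds) library, grouped by role (y axis). Levels span from under 1 for Axin2 and most ligands to 909 in control and 607 in fed cells for Sfrp1.

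Other genes of the pathway were taken from 3 lists. Of 42 genes of signal transduction and the destruction complex, 38 were tested, 8 rose and 11 fell (50% changed, beside 39.5% of all genes; median log2 fold change -0.09). Tnks, a tankyrase that marks Axin for degradation, fell from a mean of 301 CPM (SD 15.7, n = 3) to 180.1 (SD 12.9), by 0.74 ± 0.051 on the log2 scale (adjusted p = 3.11e-08). Bcl9l, a co-activator of beta-catenin, fell by 0.40 on the log2 scale. The Wnt inhibitor Tpbg rose from 49.0 ± 0.609 to 63.1 ± 1.43 CPM, and Dvl1, a Dishevelled protein, rose by 0.28. Gsk3a rose by 0.13 while Gsk3b, its paralogue in the destruction complex, fell by 0.14 on the log2 scale. Wls, which carries Wnt proteins to the surface, fell by 0.18. Apc did not pass, with a log2 fold change of -0.18 (adjusted p = 0.124).

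Of 27 genes of the planar polarity and calcium branches, 25 were tested, 2 rose and 8 fell (40% changed, beside 39.5% of all genes; median -0.11). The share called changed was thus near that of all genes, but the directions were not. Those called higher were 8%, beside 20.5% of all genes, and those called lower 32%, beside 19.0%. Scrib and Vangl1, which set planar cell polarity, rose by 0.31 and 0.23 on the log2 scale. Prickle1, another polarity protein, fell by 0.39 and the calcium-dependent kinase gene Camk2d by 0.20.

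Of 40 reported beta-catenin target genes, 37 were tested, 16 rose and 8 fell (64.9% changed, beside 39.5% of all genes; median 0.13). Those called higher were 43.2%, beside 20.5% of all genes, and those called lower 21.6%, beside 19.0%. Several of these genes also answer to other pathways. Ccnd1, the G1 cyclin, rose from 297 ± 14.8 to 487 ± 16.8 CPM (log2 fold change 0.71 ± 0.041, adjusted p = 1.02e-10). The adhesion receptor gene Cd44 rose by 0.58 and Birc5, a gene of mitosis and cell survival, by 0.60. Gas1, a membrane protein of growth-arrested cells, fell by 0.32 on the log2 scale. Sp5, a target used as a direct readout of beta-catenin, had no count in any library.

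Exons of several members overlap a gene of the opposite strand in GENCODE M21: Dact1 over 1313 bases, Fzd5 over 1233, Wnt11 over 364, Sfrp2 over 347 and Notum over 708 and 210. The library kit keeps strand, but the sources used here do not give the strand setting of the counting, so in these stretches the reads of Dact1, Fzd5, Wnt11 and Sfrp2 cannot be told apart from those of the overlapping genes, for which no counts were matched. The genes that overlap Notum had 5 counts (Notumos) and 0 (Myadml2os) over all libraries, against 269 for Notum.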

How the data were processed

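RNA of 3 control and 3 fed libraries (200 ng of total RNA, stranded mRNA kit, per the labels' protocols) was sequenced. The authors deposited raw counts per gene symbol. The submitters' processing notes name STAR 2.6.0c, Trimmomatic 0.36, featureCounts (Subread 1.6.1), MultiQC 1.5 and build GRCm38. Not given in the sources used here are the gene annotation, the strand option of the counting and how reads matching more than 1 gene were treated. Features named as dates (27) stayed in the totals.

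Counts were fitted over the whole table in R 4.3.3 with edgeR 4.0.16: filterByExpr (0.465 CPM or more in at least 3 libraries), TMM scaling and the robust quasi-likelihood test, with no replicate block. Calls used a Benjamini-Hochberg adjusted p under 0.05. CPM divide each count by the TMM-scaled library total, per 1e+06. Levels per kilobase used the union of exons in GENCODE M21 (GRCm38), which may differ from the authors' annotation. Errors of fold changes are standard errors from the F statistic. Pairs of libraries of a group differed by more than sampling noise (chi-square per degree of freedom 2.67 to 6.17). Alternatives included limma-voom 3.58.1 and DESeq2 1.42.0.

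Values in every library are given for up to 5 called members per role group with the smallest adjusted p. They are also given for called members with a log2 fold change of at least 0.5 in size and no overlap. The member with the highest level per length in each role group is reported too, with Porcn, Fzd1, Ryk and Nkd2 as mean and SD. Of the other lists, up to 4 called genes were taken, and further genes were chosen after their values were seen. The members and lists were chosen with earlier results of these data known.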

Additional observations from a re-analysis of the deposited data

How the results depend on the processing

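Across 15 alternatives, 16 of the 22 called members kept call and direction in all of them, and none of the 22 changed sign. The other 6 were Fzd4, Fzd5, Fzd7, Notum, Sfrp4 and Tcf7l2. Of the 27 tested members not called, 9 passed in at least 1 alternative. The number of members changed was 22, and 18 to 24 without 1 library, 19 by DESeq2, 25 with library totals only and 17 at an adjusted p under 0.01. Members called higher numbered 8, but 5 by DESeq2, 5 at an adjusted p under 0.01 and 6 to 8 without 1 library, and those lower numbered 12 to 16 without 1 library. The polarity and calcium list had 10 changed genes, 6 at an adjusted p under 0.01 and 7 to 10 without 1 library. The cause of these shifts was not tested, beyond the stricter threshold itself.

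Signs changed only in members that did not pass. With library totals only, the log2 fold change was 0.0258 for Lrp5 and 0.0214 for Nkd1, and that of Lrp5 was 0.0035 with no filter on low counts. Without 1 library, that of Wnt2b ranged from -0.0719 to 0.2045, Lrp5 from -0.0204 to 0.0071, Nkd1 from -0.1463 to 0.0583, Tcf7 from -0.0058 to 0.1882 and Tcf7l1 from -0.0044 to 0.0465.

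Libraries share replicate numbers between groups, but the numbers could not be shown to pair them. Deviations from the group means correlated by 0.185, 0.023 and 0.141 for replicates 1, 2 and 3, and fed replicate 2 correlated best with control replicate 3 (0.037). With the number as a replicate block, 28 members changed (10 higher, 18 lower), and the count of all genes changed was 5848, against 5175. Depth limits the members with few reads, and 21 were not tested. Among those tested but not called, Wnt2b, Wnt4, Axin2 and Wnt2 rest on 99, 141, 169 and 192 counts over all libraries. The called members Notum, Wnt11 and Wif1 rest on 269, 296 and 304.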
